A study of Mus musculus with 12 samples.

Results

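The comparison described here is between 2 diets in livers that were not made ischemic. Of the 12 mouse liver libraries of the study, 6 entered it: 3 from mice fed a normal diet (ND-Sham) and 3 from mice fed a high-fat diet (HFD-Sham). They were chosen by their labels alone, and all 13364 genes that passed a filter on low values were compared. The mice were wild type, ate their diet for 4 months and then had a sham operation, with the same steps as the injury but no tie on the branch of the hepatic pedicle. The other 6 libraries, ND-IRI and HFD-IRI, 3 each, came from mice on the same diets in which the inflow to part of the liver was closed for 1 h and open again for 6 h (ischemia-reperfusion injury). They entered the model for the estimate of the spread and serve as a second pair of diets. The high-fat diet served as a model of hepatic steatosis. The question is how the liver transcriptome differs between the 2 diets before any injury. The sample labels used here give no measure of liver fat. Below, steatotic and lean are therefore only names for livers of the high-fat and of the normal diet. For strain, sex and age, the labels state nothing. The labels name separate samples without saying that they came from separate animals, so a p-value reflects only how far these samples vary, in part perhaps for technical reasons.

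Fat reaches hepatocytes as fatty acids from the blood, through carriers such as CD36, and as products of synthesis from glucose. It is esterified to triglyceride, packed into droplets coated by perilipins and CIDE proteins, exported as lipoprotein or oxidized in mitochondria and peroxisomes. PPARA, a nuclear receptor activated by fatty acids, drives much of the oxidation programme, and PPARG, low in lean liver, drives lipid storage. Mouse liver is also sexually dimorphic: pulses of growth hormone in males, acting through STAT5B, HNF4A and BCL6, keep genes such as the major urinary proteins (Mup) high and genes such as Cyp2b9 off, whereas the steadier secretion of females does the reverse.

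All values are TPM (a length-normalized transcript level on which every library has the same total), given in the order of replicates 1, 2 and 3. A log2 fold change is HFD-Sham minus ND-Sham on log2(TPM + 1), which understates the change of genes near 0 TPM. A gene was called, and is said to have risen or fallen, at a limma p under 0.05 after Benjamini-Hochberg adjustment over all genes tested. Sequencing depth could not be derived from TPM, so counting precision is unknown. An exact permutation test of 3 libraries against 3 could not give a p below 0.1. Genes with close copies (Mup, Cyp2a, Cyp2b, Cyp2c, Cyp2d, Cyp4a, Slc22a, Serpina1) may share reads, so the change of a single member is uncertain.

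The 6 libraries looked like liver. Albumin, Alb, was at 62006 to 83680 TPM, and 15 of 17 markers of exocrine pancreas and gut were below the filter. Xist was at 0.01 to 0.02 TPM and the Y-linked Ddx3y at 35.9 to 48.7 TPM in all 6, and both groups therefore carried a male transcript pattern. The number of genes above 0 TPM ran from 18935 to 20204. On the first principal component of the 6 libraries (50.4% of the variance) the ND-Sham libraries scored -7.13, -38.4 and -32.5 and the HFD-Sham libraries 28.4, 38.2 and 11.5. ND-Sham 1 stood apart on the second component (26.9%), at a score of 43.7 against 7.56 or less in the other 5. It also held 11.6 TPM of the adipocyte hormone Adipoq, against at most 0.23 TPM in every other library, 2.53 TPM of Retn, and lymphocyte markers summing to 146 TPM against at most 32.8 TPM in the other 5. List counts that moved by more than 1.5 times without it are given both ways.

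After 4 months on the high-fat diet 619 of 13364 genes (4.63%) were higher and 161 (1.2%) were lower, 780 (5.84%) in all. Of those, 315 changed by at least 1 on the log2 scale, 222 up and 93 down. The largest rises were those of Cyp2b9, Cyp2a4, Cyp2a22, Sprr1a, Ly6d, Apoa4, Slc22a27, Cidea, Ubd, Osbpl3, Gsta1 and Slc22a29, and the largest falls among genes with a name were those of Serpina1e, Hsd3b5, Mup7, Cyp4a12b, Mup8 and Mup14. Sprr1a, a small proline-rich protein of squamous epithelia, was at 0, 0.13 and 0 TPM in ND-Sham and 12.2, 62.6 and 4.53 TPM in HFD-Sham (log2 fold change of 4.00, SE 0.68, adjusted p = 0.00679). Ubd, the ubiquitin-like modifier FAT10, was at 4.8, 2.17 and 0.8 TPM in ND-Sham and 30.3, 104 and 12.6 TPM in HFD-Sham (log2 fold change of 3.47, SE 0.59, adjusted p = 0.00667). Ly6d, a surface protein anchored by a glycolipid, was at 14.2, 3.54 and 4.13 TPM in ND-Sham and 93.5, 263 and 51.5 TPM in HFD-Sham (3.95, adjusted p = 0.0231), lost without HFD-Sham 1, HFD-Sham 2, ND-Sham 2 or ND-Sham 3 (0.0572 to 0.112). HFD-Sham 2 was the highest sham library for all 3, and none overlapped between the diets. Groups that did not overlap were common, 29.9% of all genes tested, so a gap between the 3 and 3 values is weak evidence on its own. In bulk tissue, fewer cells of a type and less RNA per cell cannot be told apart. The median log2 fold change of all genes was 0.17, and the balance of directions depended on the scaling. With median-ratio scaling, which brought that median to 0.0063, 275 genes were higher and 207 lower, so that 57.05% of calls were higher against 79.4% before, and quantile normalization gave 329 higher and 250 lower. Of the 780 genes 409 were called in the same direction under that scaling, and 455 under quantile normalization.

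The number of calls also rested on single libraries. It was 1047 without ND-Sham 1, 325 without ND-Sham 2, 311 without ND-Sham 3, 430 without HFD-Sham 1, 248 without HFD-Sham 2 and 693 without HFD-Sham 3. Calls held in all 6 of these fits for 211 of the 780 genes, and no called gene turned its sign in any of them. Among 111 called genes named by a rule stated under the processing, 47 kept the call under all 17 alternatives tried. Where values of a gene called in sham livers are given with no loss beside them, the call held when each sham library was left out. Counts of called members of a list are to be read against all genes, of which 4.63% were called higher and 1.2% lower. Counts of members at an unadjusted p under 0.05 are to be read against all genes, of which 17.7% were higher and 3.51% lower at that p.

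**Figure D1:**
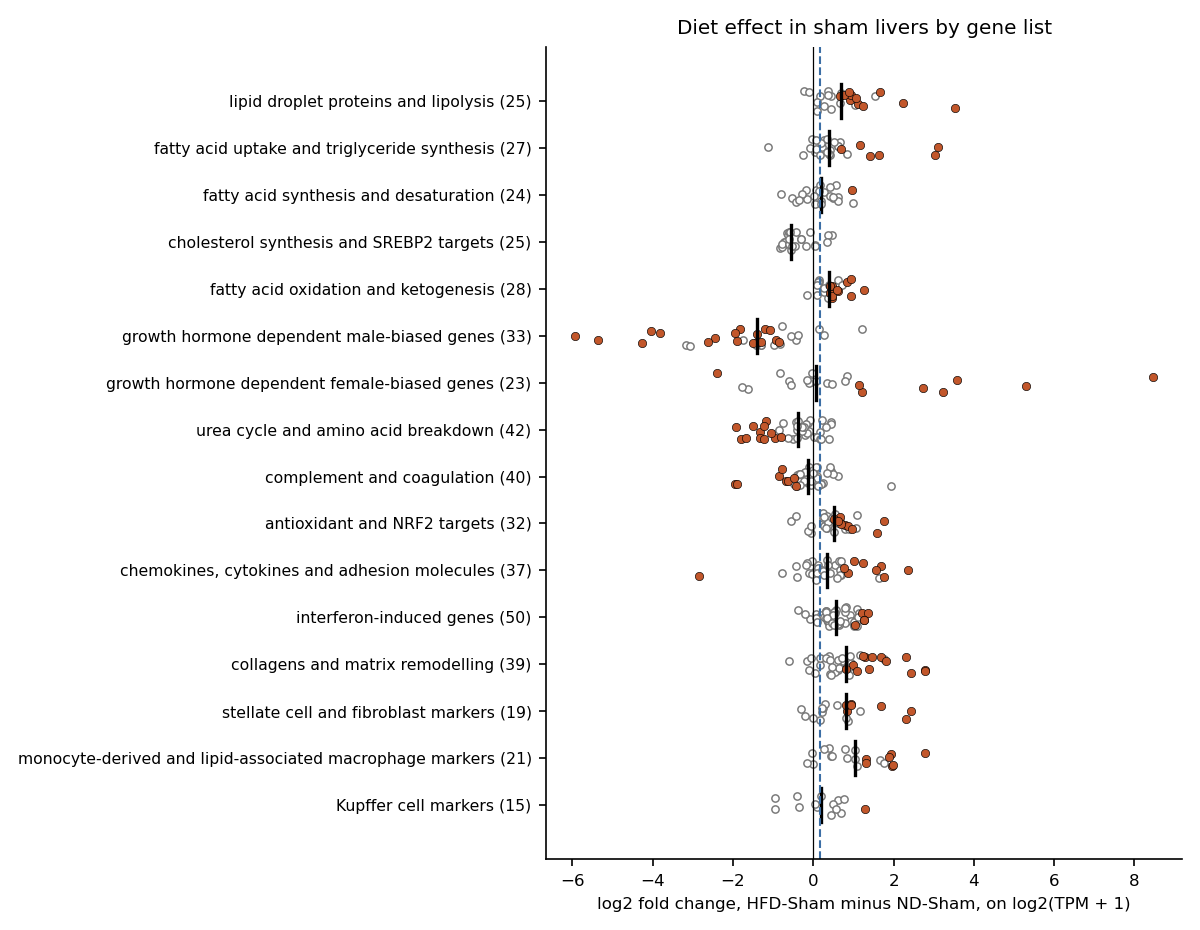
Log2 fold change (HFD-Sham minus ND-Sham) of each tested member of 16 gene lists, with the number of tested members in brackets. Filled points were called, open points were not, black bars mark each list's median and the dashed line marks the median of all genes (0.17). The male-biased list lies furthest to the left, with a median of -1.41, and the macrophage, stellate and matrix lists lie to the right.

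The largest rise was that of Cyp2b9, a steroid hydroxylase of female mouse liver that is nearly silent in males. Cyp2b9 was at 0.3, 0.76 and 0.28 TPM in ND-Sham and 559.7, 489.7 and 467 TPM in HFD-Sham (log2 fold change of 8.46, SE 0.22, adjusted p = 6.22e-10). In other words it was below 1 TPM in every lean liver and among the abundant P450 transcripts in every liver of the high-fat diet. Cyp2b13, its neighbour and close copy, was at 0.05, 0 and 0 TPM in ND-Sham and 4.62, 20.4 and 6.34 TPM in HFD-Sham (log2 fold change of 3.24, SE 0.57, adjusted p = 0.00814; named after its values were seen). The pair rose together, and their promoter windows, shown for that reason, differ little: 298 of the 300 bases from 250 before to 50 after the annotated start are identical (99.3%). Both differences lie before the start. Both are on the plus strand of RefSeq's GRCm38.p6 assembly, at chr7:26173159-26173458 for Cyp2b9 and chr7:26061245-26061544 for Cyp2b13. Capitals mark the differing bases, T48C and C104T, counted from 1 at the 5′ end with Cyp2b9 first.
Cyp2b9: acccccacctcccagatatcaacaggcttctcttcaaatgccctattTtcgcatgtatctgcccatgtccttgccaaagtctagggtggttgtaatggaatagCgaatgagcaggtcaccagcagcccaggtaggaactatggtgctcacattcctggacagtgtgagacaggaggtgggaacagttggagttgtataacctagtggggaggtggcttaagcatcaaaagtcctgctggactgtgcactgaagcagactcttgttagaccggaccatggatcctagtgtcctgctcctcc
Cyp2b13: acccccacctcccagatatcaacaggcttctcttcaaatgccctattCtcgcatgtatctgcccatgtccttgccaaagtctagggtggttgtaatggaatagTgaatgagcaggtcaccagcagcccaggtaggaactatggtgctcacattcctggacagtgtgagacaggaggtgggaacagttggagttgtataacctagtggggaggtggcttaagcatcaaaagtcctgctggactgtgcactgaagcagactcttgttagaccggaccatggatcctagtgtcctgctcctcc

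Other female-biased genes rose as well, but not the list as a whole. Of 23 tested members 7 rose and 1 fell, against 4.63% and 1.2% of all genes, and the median was 0.073. At an unadjusted p under 0.05 in limma, 9 were higher and 5 lower, against 17.7% and 3.51% of all genes. Without ND-Sham 1, 7 rose and 3 fell, and the median turned to -0.072, as it did with median-ratio scaling (-0.093). Cyp2a4, a steroid 15-alpha-hydroxylase, was at 0.55, 1.4 and 0.3 TPM in ND-Sham and 36.9, 107 and 71.9 TPM in HFD-Sham (log2 fold change of 5.30, SE 0.42, adjusted p = 3.81e-05). Slc22a27, an organic anion transporter gene of female liver, was at 1.85, 1.27 and 1.28 TPM in ND-Sham and 23.2, 33 and 29.7 TPM in HFD-Sham (log2 fold change of 3.58, SE 0.22, adjusted p = 4.28e-06). Neither overlapped between the diets, and the spread between HFD-Sham libraries was wider for Cyp2a4 than for Slc22a27. Its relative Slc22a29 was at 0.42, 0.31 and 0.28 TPM in ND-Sham and 11.8, 10.9 and 14.7 TPM in HFD-Sham (log2 fold change of 3.32, SE 0.20, adjusted p = 2.93e-06). Cyp2a22, another member of the Cyp2a cluster, was at 4.96, 10.6 and 2.71 TPM in ND-Sham and 123, 129 and 117 TPM in HFD-Sham (log2 fold change of 4.28, SE 0.38, adjusted p = 8.41e-05). Sult1e1, an estrogen sulfotransferase of the list, was flat, at 0.99, 0.81 and 0.85 TPM in ND-Sham and 1.11, 1.03 and 1.26 TPM in HFD-Sham (0.18, adjusted p = 0.919). The member that fell was Cux2, a repressor that in females silences male-biased genes. Cux2 was at 4.26, 4.25 and 8.98 TPM in ND-Sham and 0.22, 0.16 and 0.33 TPM in HFD-Sham (log2 fold change of -2.40, SE 0.22, adjusted p = 0.00011). It was thus expressed in each lean liver and at 0.33 TPM or less on the high-fat diet.

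Male-biased genes fell widely. Of 33 tested members 18 fell and 0 rose (at an unadjusted p under 0.05, 21 fell and 0 rose), with a median of -1.41. Counts were 14 without ND-Sham 1, 16 with median-ratio scaling and 15 with quantile normalization. Serpina1e, an alpha-1 antitrypsin paralog, was at 8394, 11222 and 7654 TPM in ND-Sham and 204, 92.8 and 164 TPM in HFD-Sham (log2 fold change of -5.93, SE 0.28, adjusted p = 3.33e-07). It went from one of the abundant secretory transcripts to a minor one, with no overlap between the diets. Hsd3b5, a male-specific 3-ketosteroid reductase, was at 76.3, 86.1 and 19.8 TPM in ND-Sham and 0.41, 0.13 and 0.27 TPM in HFD-Sham (log2 fold change of -5.36, SE 0.44, adjusted p = 4.73e-05), although ND-Sham 3 was already well below the other lean livers. Cyp4a12b, a male-biased arachidonate omega-hydroxylase, was at 106, 57.7 and 92.6 TPM in ND-Sham and 5.16, 6.06 and 2 TPM in HFD-Sham (log2 fold change of -4.05, SE 0.51, adjusted p = 0.00118). Cyp2d9, a testosterone 16-alpha-hydroxylase, was at 1398, 1647 and 1529 TPM in ND-Sham and 656, 439.6 and 539.6 TPM in HFD-Sham (log2 fold change of -1.50, SE 0.18, adjusted p = 0.000878). Gstp1, a pi-class glutathione transferase, was at 1554, 1754 and 1596 TPM in ND-Sham and 635, 860.0 and 829.9 TPM in HFD-Sham (log2 fold change of -1.09, SE 0.13, adjusted p = 0.000673). Both of these abundant transcripts were lower in each of the 3 HFD-Sham libraries than in any lean one.

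Among the urinary pheromone carriers, Mup7 was at 4212, 6984 and 5060.4 TPM in ND-Sham and 361, 72 and 782 TPM in HFD-Sham (log2 fold change of -4.27, SE 0.80, adjusted p = 0.0103). Relative to their mean, the 3 HFD-Sham values differed from each other by more than the ND-Sham values did, and HFD-Sham 2 was the lowest. Mup20, darcin, was at 6073, 6276 and 7373 TPM in ND-Sham and 2752, 4359 and 3461 TPM in HFD-Sham (-0.92, adjusted p = 0.0401). That call was lost without any 1 of HFD-Sham 1, HFD-Sham 2, HFD-Sham 3, ND-Sham 2 or ND-Sham 3 (adjusted p 0.0527 to 0.147) and with median-ratio scaling (0.0679). Mup14 (-3.82, adjusted p = 0.0407) was lost without any 1 of ND-Sham 1, 2 and 3, HFD-Sham 1 or HFD-Sham 2 (adjusted p 0.0585 to 0.182). Mup11 (-2.45, adjusted p = 0.0333) was lost without any 1 of HFD-Sham 1, HFD-Sham 2, ND-Sham 2 or ND-Sham 3 (0.0831 to 0.154). Slco1a1, a male-biased bile acid and steroid uptake carrier, was at 121, 104 and 89.7 TPM in ND-Sham and 24.8, 5.19 and 29.8 TPM in HFD-Sham (-2.63, adjusted p = 0.0169), with the call lost without ND-Sham 2 (0.063) or ND-Sham 3 (0.051). Cyp7b1, an oxysterol 7-alpha-hydroxylase, fell from 200.4, 169.6 and 168 to 88.7, 48.3 and 106 TPM (-1.21, adjusted p = 0.0277), a call lost when any sham library but HFD-Sham 3 was left out (0.0512 to 0.102).

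Not every member moved. Elovl3, a male-biased fatty acid elongase, was at 140.1, 92.9 and 129 TPM in ND-Sham and 53.5, 69.3 and 179.7 TPM in HFD-Sham (-0.44, adjusted p = 0.519), so that HFD-Sham 3 exceeded every lean liver. The Serpina1 cluster was split in the same way. Serpina1b was at 4258, 4029 and 4701 TPM in ND-Sham and 4449, 3931 and 4530.4 TPM in HFD-Sham (-0.0085, adjusted p = 0.982, between -0.21 and 0.28 over the alternatives), with the diets overlapping. Serpina1a was at 1869.6, 2177 and 1964 TPM in ND-Sham and 1499, 1206 and 1388 TPM in HFD-Sham (-0.56, adjusted p = 0.013). Serpina1d was at 3847, 3897 and 3493 TPM in ND-Sham and 2482, 1513 and 2814 TPM in HFD-Sham (-0.77, adjusted p = 0.0352). Like Serpina1b, both were named after their values were seen. The Serpina1a call was lost without ND-Sham 2 (0.0655) or HFD-Sham 2 (0.0643). That of Serpina1d was lost without any sham library but HFD-Sham 3 (0.056 to 0.121). Both were lost with median-ratio scaling (0.0546 and 0.0629) or quantile normalization (0.128 for each).

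**Figure D2:**
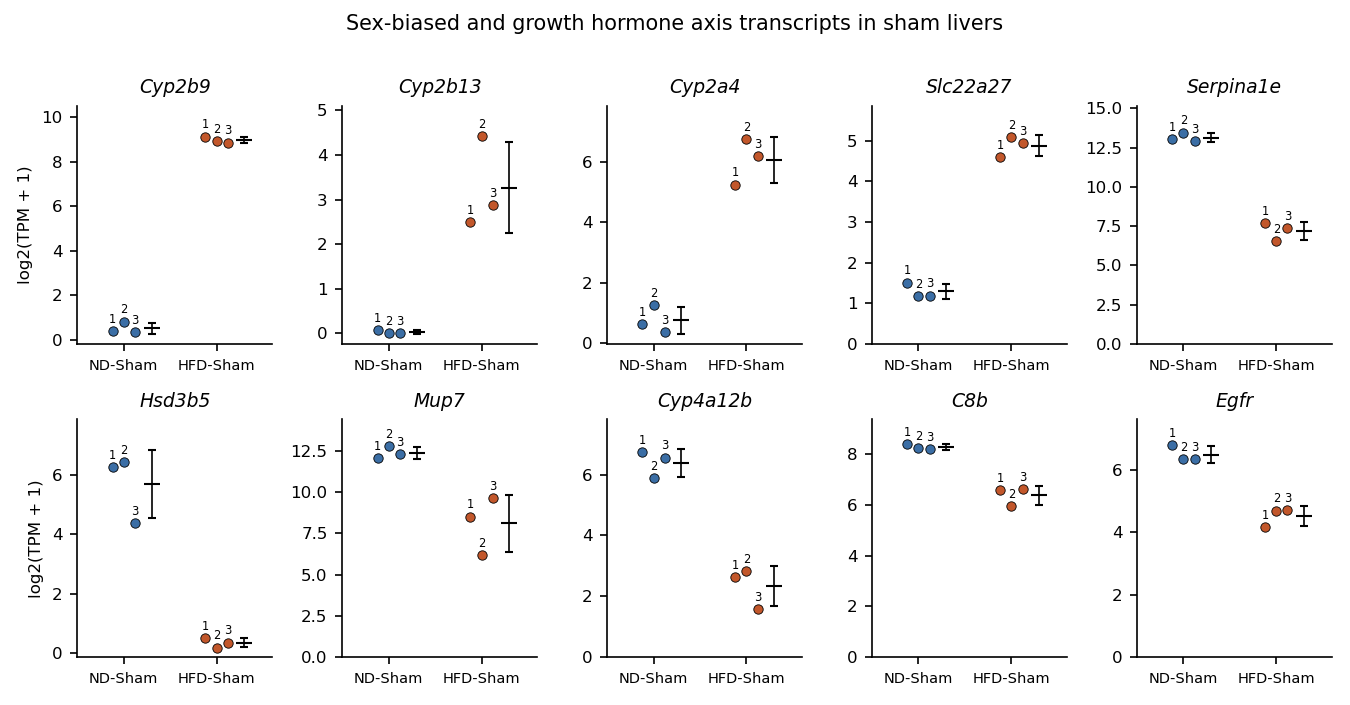
Log2(TPM + 1) of 10 sex-biased or growth hormone axis transcripts in each of the 6 sham libraries. Points are libraries, numbered by replicate, and bars are the group mean ± SD (n = 3). The 4 female-biased genes at the start are higher in all 3 HFD-Sham libraries, and the other 6 are lower in all 3.

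Promoter windows are shown for Serpina1e, which fell, for its paralog Serpina1b, which was flat, and for Mup7. All 3 are on the minus strand of GRCm38.p6, at chr12:103956848-103957147, chr12:103738140-103738439 and chr4:60070426-60070725. Capitals mark the hexamer ATTGAT or its reverse complement ATCAAT, the core that CUT homeodomain factors such as HNF6 and CUX2 are known to bind.
Serpina1e: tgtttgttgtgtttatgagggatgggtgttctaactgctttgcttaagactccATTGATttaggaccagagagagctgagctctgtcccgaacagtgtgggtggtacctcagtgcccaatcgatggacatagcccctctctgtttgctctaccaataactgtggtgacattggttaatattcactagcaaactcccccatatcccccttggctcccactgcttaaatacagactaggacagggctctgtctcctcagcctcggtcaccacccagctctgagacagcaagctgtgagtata
Serpina1b: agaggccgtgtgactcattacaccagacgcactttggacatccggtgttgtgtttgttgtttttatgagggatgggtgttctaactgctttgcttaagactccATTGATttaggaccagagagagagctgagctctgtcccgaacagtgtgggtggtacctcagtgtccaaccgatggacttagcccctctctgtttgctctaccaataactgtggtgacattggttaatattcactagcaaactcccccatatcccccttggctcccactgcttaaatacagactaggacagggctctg
Mup7: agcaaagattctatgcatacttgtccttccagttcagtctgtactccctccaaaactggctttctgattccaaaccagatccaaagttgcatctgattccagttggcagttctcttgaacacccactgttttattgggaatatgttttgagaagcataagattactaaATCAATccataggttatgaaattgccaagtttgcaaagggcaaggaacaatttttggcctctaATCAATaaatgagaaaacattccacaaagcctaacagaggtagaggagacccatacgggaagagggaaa

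Serpina1e and Serpina1b each hold the hexamer once and Mup7 holds it at 2 places. It occurs on either strand in 14 of the 24 male-biased genes with a window (58.3%), 11 of them Mup paralogs that share sequence. Among female-biased genes it occurs in 4 of 16 (25%), among tested genes in 552 of 10016 (5.51%) and among all windows in 8.63%. It was 1 of 10 motifs searched, and it is singled out after the counts were seen. The STAT element TTCNNNGAA was found in 1 of the 24 male-biased and 3 of the 16 female-biased genes, and in 9.55% of all windows. ATCGAT, also searched and not marked, was found in 1 of the 24 male-biased genes, Serpina1e. It was found in 1 of the 16 female-biased genes, Cux2, and in 1.02% of all windows. The Serpina1b window does not hold it. These are matches of letters within 300 bases and say nothing of binding.

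Of the growth hormone and IGF axis, 1 of 20 genes rose and 5 fell, against 4.63% and 1.2% of all genes, with a median of -0.03. Egfr, the EGF receptor, a growth hormone dependent gene in hepatocytes, was at 110.3, 79.5 and 79.6 TPM in ND-Sham and 16.8, 24.8 and 25.2 TPM in HFD-Sham (log2 fold change of -1.97, SE 0.19, adjusted p = 0.000162), and no lean and steatotic library overlapped. Socs2, a feedback inhibitor of growth hormone signalling and a STAT5 target, was at 11.3, 4.37 and 21.6 TPM in ND-Sham and 2.05, 2.64 and 1.43 TPM in HFD-Sham (-1.93, adjusted p = 0.0169), with the call lost without ND-Sham 3 (0.0512). Igfbp2, an IGF carrier, was at 904, 699 and 1194 TPM in ND-Sham and 371, 167 and 446 TPM in HFD-Sham (-1.58, adjusted p = 0.0183), lost without HFD-Sham 2 (0.0561) or ND-Sham 3 (0.0834). Both were variable among lean livers, with ND-Sham 3 the highest. Igf1, the main growth hormone dependent hormone of the liver, was at 175, 161 and 184 TPM in ND-Sham and 100.3, 107 and 136 TPM in HFD-Sham (-0.61, adjusted p = 0.041), a call lost without any 1 of the 6 libraries but HFD-Sham 3 (0.0652 to 0.161). Bcl6, a repressor of female-biased genes, rose from 4.31, 3.93 and 3.6 to 20, 6.19 and 8.17 TPM (1.17, adjusted p = 0.042). Its call was lost without HFD-Sham 1 (0.0527) or any ND-Sham library (0.0528 to 0.135) and with median-ratio scaling (0.106).

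In fatty acid uptake and triglyceride synthesis, 6 of 27 members rose and 0 fell (at an unadjusted p under 0.05, 10 and 0), with a median of 0.40. Cd36, the fatty acid translocase, was at 38.9, 30.9 and 35.8 TPM in ND-Sham and 279, 346 and 308 TPM in HFD-Sham (log2 fold change of 3.11, SE 0.13, adjusted p = 1.53e-07). The lean livers lay within a narrow band far below the narrow band of the steatotic ones. Mogat1, a monoacylglycerol acyltransferase that is low in lean liver, was at 1.65, 1.17 and 0.95 TPM in ND-Sham and 12.4, 27.3 and 14.7 TPM in HFD-Sham (log2 fold change of 3.02, SE 0.27, adjusted p = 8.04e-05). Fabp2, a fatty acid binding protein best known from intestine, was at 216, 153 and 179 TPM in ND-Sham and 385, 473 and 377 TPM in HFD-Sham (log2 fold change of 1.17, SE 0.14, adjusted p = 0.000729). Slc27a4, Vldlr and Gpat3, a fatty acid transporter, a lipoprotein receptor and an acyltransferase, also rose. Dgat2, which makes the last step of triglyceride synthesis, was at 409, 506 and 375 TPM in ND-Sham and 583, 522 and 581 TPM in HFD-Sham (0.40, adjusted p = 0.284), not past the threshold. Pparg, the storage-promoting receptor, was at 7.37, 8.84 and 10.9 TPM in ND-Sham and 32.2, 44 and 23 TPM in HFD-Sham (log2 fold change of 1.73, SE 0.24, adjusted p = 0.00219), and each steatotic liver was above every lean one.

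Of the lipid droplet and lipolysis genes 11 of 25 rose and 0 fell (17 and 0 at an unadjusted p under 0.05), with a median of 0.69, and 8 rose without ND-Sham 1 and 6 with median-ratio scaling. They were Plin2, Plin3, Plin4, Cidea, Cidec, Mgll, Hsd17b11, Hsd17b13, Fitm1, Fitm2 and Ces1d. Fitm2, which releases droplets from the endoplasmic reticulum, was at 50.3, 38.7 and 53.3 TPM in ND-Sham and 83.1, 108 and 108 TPM in HFD-Sham (log2 fold change of 1.06, SE 0.20, adjusted p = 0.00978), lost only without HFD-Sham 2 among the libraries (0.0527). Cidec, which fuses droplets, was at 31.6, 23.7 and 38.5 TPM in ND-Sham and 67, 344 and 140.2 TPM in HFD-Sham (log2 fold change of 2.23, SE 0.54, adjusted p = 0.0312). Most of its rise lay in HFD-Sham 2 and 3, and HFD-Sham 1 was nearest to the lean livers. The Cidec call was lost without any 1 of the sham libraries but HFD-Sham 1 (0.0501 to 0.126) and with median-ratio scaling (0.0595). Cidea was at 0.43, 0 and 0.66 TPM in ND-Sham and 4.07, 49.6 and 13.1 TPM in HFD-Sham (3.52, adjusted p = 0.0302), lost without any 1 of HFD-Sham 2, HFD-Sham 3, ND-Sham 2 or ND-Sham 3 (0.0593 to 0.129). Plin2, the main droplet coat of hepatocytes, was at 409, 709.9 and 666 TPM in ND-Sham and 942, 1494 and 1409.9 TPM in HFD-Sham (1.12, adjusted p = 0.0373), a call lost without any 1 of the sham libraries but HFD-Sham 1 (0.065 to 0.159) and with median-ratio scaling (0.162). Plin4 was at 33.2, 26 and 63.6 TPM in ND-Sham and 95.7, 138 and 143 TPM in HFD-Sham (1.67, adjusted p = 0.0115), lost without HFD-Sham 2 (0.059) or ND-Sham 2 (0.0537). HFD-Sham 2 was the highest library for Cidea, Cidec and Plin2.

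Of 8 tested adipocyte markers 3 rose, and each of these is also made by hepatocytes: Plin4, Cidea and Car3, a carbonic anhydrase abundant in fat and liver (679, 1393 and 569 TPM in ND-Sham and 4015, 2975 and 3132 TPM in HFD-Sham; log2 fold change of 2.04, SE 0.27, adjusted p = 0.00159). The list summed to 709 to 1828 TPM in the ND-Sham libraries and 3445 to 4298 TPM in the HFD-Sham libraries, most of it Car3. The adipocyte-defining Adipoq was at 0.23 TPM or less in ND-Sham 2, ND-Sham 3 and the HFD-Sham libraries, and Adipoq and Retn were at 0 in HFD-Sham 2 and 3.

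**Figure D3:**
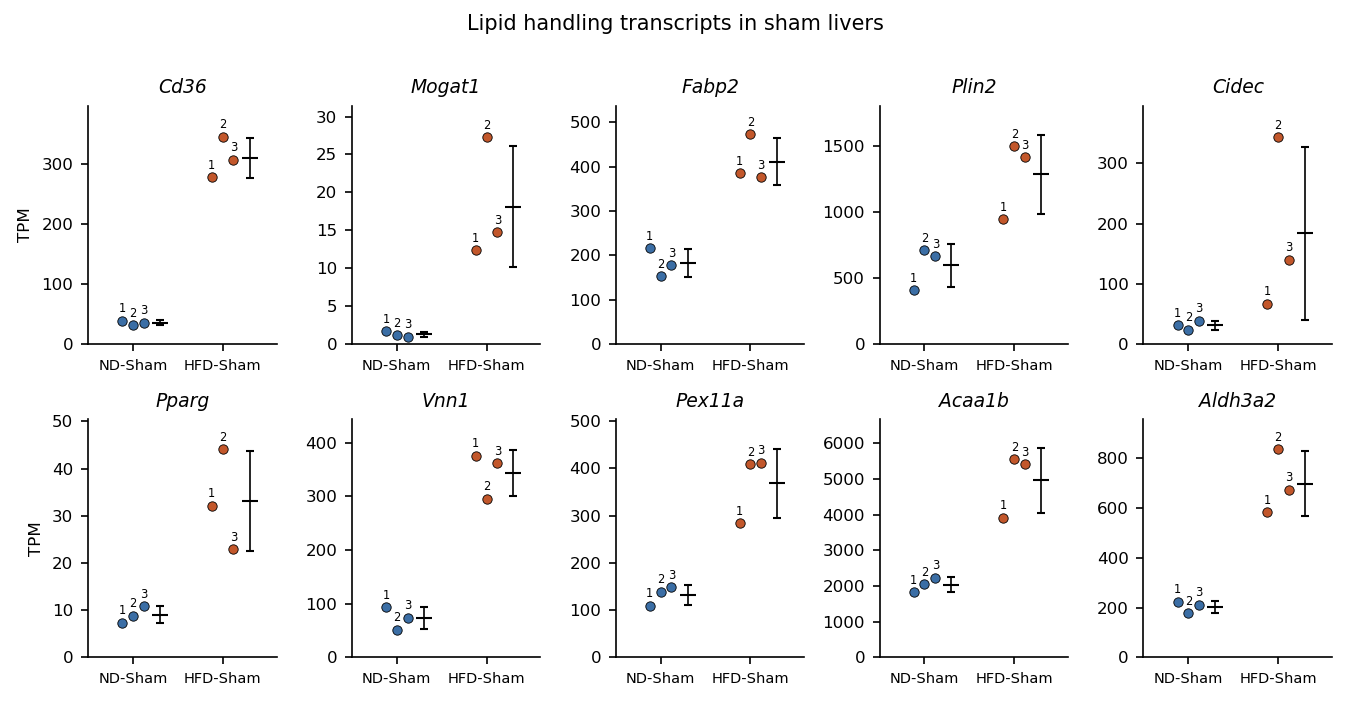
TPM of 10 lipid handling transcripts in each of the 6 sham libraries, on linear axes from 0. Points are libraries, numbered by replicate, and bars are the group mean ± SD (n = 3). Cd36 shows the tightest separation, with lean livers at 38.9, 30.9 and 35.8 TPM and steatotic livers at 279, 346 and 308 TPM, and Cidec and Plin2 vary more among the HFD-Sham libraries.

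In fatty acid oxidation and ketogenesis 11 of 28 members rose and 0 fell (19 and 0 at an unadjusted p under 0.05), by small steps (median 0.40). With median-ratio scaling 1 rose, and with quantile normalization 7. Acaa1b, a peroxisomal thiolase, was at 1822, 2062 and 2239 TPM in ND-Sham and 3917, 5552 and 5422 TPM in HFD-Sham (log2 fold change of 1.27, SE 0.19, adjusted p = 0.00305; adjusted p = 0.0634 with median-ratio scaling). Hadh, the mitochondrial short-chain 3-hydroxyacyl-CoA dehydrogenase, was at 176, 193 and 167 TPM in ND-Sham and 313, 351 and 293 TPM in HFD-Sham (log2 fold change of 0.83, SE 0.13, adjusted p = 0.00391; 0.078 with that scaling). Bdh1, which interconverts ketone bodies, was at 176, 132 and 135 TPM in ND-Sham and 268, 307 and 265 TPM in HFD-Sham (log2 fold change of 0.93, SE 0.13, adjusted p = 0.00212). Cpt1a, the gate of mitochondrial entry, did not pass the test: it was at 287, 229.8 and 302 TPM in ND-Sham and 266, 359 and 284 TPM in HFD-Sham (0.15, adjusted p = 0.575), and its sign turned with median-ratio scaling.

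Among 20 further PPARA targets 6 rose and 2 fell, with a median of 0.75, but the classic ones did not move together. Vnn1, a pantetheinase, was at 93, 51.8 and 73.7 TPM in ND-Sham and 375, 296 and 361 TPM in HFD-Sham (log2 fold change of 2.26, SE 0.18, adjusted p = 3.81e-05). Pex11a, a peroxisome proliferation factor, was at 109, 139 and 149 TPM in ND-Sham and 284, 409 and 412 TPM in HFD-Sham (log2 fold change of 1.46, SE 0.18, adjusted p = 0.00101). Acot2, a mitochondrial acyl-CoA thioesterase, was at 13.1, 32.2 and 33.1 TPM in ND-Sham and 79.1, 187 and 159 TPM in HFD-Sham (log2 fold change of 2.41, SE 0.36, adjusted p = 0.00304). All 3 were higher in every steatotic liver. The omega-hydroxylase Cyp4a14 was at 2645, 2949.8 and 5458 TPM in ND-Sham and 3005, 2254 and 5338 TPM in HFD-Sham (-0.079, adjusted p = 0.92). Its sign turned with quantile normalization and without HFD-Sham 2 or ND-Sham 3. Cyp4a10 was at 1832, 2225 and 2595 TPM in ND-Sham and 1819.8, 1358 and 2061 TPM in HFD-Sham (-0.35, adjusted p = 0.355), and both genes overlapped between the diets. The 2 members that fell, Cyp4a12a and Cyp4a12b, are also male-biased; Cyp4a12a (-1.82, adjusted p = 0.0305) was lost without any 1 of HFD-Sham 2, HFD-Sham 3, ND-Sham 2 or ND-Sham 3 (0.0754 to 0.119). Pdk4, which spares glucose in fasting, ranged over 5.09, 176 and 396 TPM among lean livers and 210.2, 823 and 701 TPM among steatotic ones (2.72, adjusted p = 0.214), with ND-Sham 1 by far the lowest. Ppara was at 66.9, 55 and 71.8 TPM in ND-Sham and 119.6, 120.1 and 136 TPM in HFD-Sham (0.95, adjusted p = 0.0714; 0.0184 with only the groups compared).

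Fatty acid synthesis was close to the background. Of 24 genes 1 rose and 0 fell (6 and 0 at an unadjusted p under 0.05), and 2 rose without ND-Sham 1. Fads2, a desaturase of polyunsaturated fatty acids, was at 489, 300.3 and 379 TPM in ND-Sham and 662, 910.4 and 685 TPM in HFD-Sham (0.96, adjusted p = 0.0312), a call lost without any sham library but ND-Sham 1 (0.051 to 0.147) and with median-ratio scaling (0.126). Fasn, fatty acid synthase, was at 41.1, 171 and 29.9 TPM in ND-Sham and 22, 60.6 and 28.2 TPM in HFD-Sham (-0.81, adjusted p = 0.471). Scd1, stearoyl-CoA desaturase, was at 2946, 1465 and 1989 TPM in ND-Sham and 3707, 5279.9 and 3471 TPM in HFD-Sham (0.99, adjusted p = 0.109; 0.043 with quantile normalization). Fasn was highest in 1 lean liver, whereas the diets did not overlap for Scd1. Of 25 cholesterol synthesis genes 0 rose and 0 fell (0 and 1 at an unadjusted p under 0.05), with a median of -0.57. Sqle, squalene epoxidase, was at 25.4, 75.4 and 17 TPM in ND-Sham and 18.9, 27.1 and 12.1 TPM in HFD-Sham (-0.77, adjusted p = 0.324). ND-Sham 2 stood far above every other library for Sqle. The list summed to 1503 to 3767 TPM in the ND-Sham libraries and 1455 to 2380.5 TPM in the HFD-Sham libraries, the highest in ND-Sham 2. Of 14 LXR targets and sterol exporters 0 rose and 0 fell (3 and 0 unadjusted).

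Of 35 P450 genes of families 1 to 3, 6 rose and 4 fell, against 4.63% and 1.2% of all genes, with a median of -0.17. The rises were in the Cyp2a and Cyp2b genes above, in Cyp2a12 and in Cyp2c38. Cyp2c23, an arachidonate epoxygenase, was at 387, 357 and 382 TPM in ND-Sham and 192, 109.6 and 212 TPM in HFD-Sham (-1.18, adjusted p = 0.013; 0.0528 without ND-Sham 3). Cyp3a11, the main drug-metabolizing P450, was at 2137, 1801 and 3354 TPM in ND-Sham and 953, 1385 and 769 TPM in HFD-Sham (-1.22, adjusted p = 0.0294), lost without HFD-Sham 1, HFD-Sham 3 or ND-Sham 3 (0.0815 to 0.118). Cyp2b10, the classic target of the xenobiotic receptor CAR, was at 0.58, 3.83 and 1.25 TPM in ND-Sham and 0.5, 0.51 and 1.19 TPM in HFD-Sham (-0.60, adjusted p = 0.499). It was thus at most 3.83 TPM in all 6 livers while its relative Cyp2b9 was abundant in the steatotic ones. Of 41 phase II genes 5 rose and 5 fell, against the same 4.63% and 1.2%, while 3 fell without ND-Sham 1 and 2 rose with median-ratio scaling. Sult1c2, a sulfotransferase, rose from 5.97, 7.02 and 4.19 to 23.2, 19.5 and 18.5 TPM (log2 fold change of 1.69, SE 0.22, adjusted p = 0.00136), and Sult1a1 fell from 579, 830.4 and 776 to 432, 426 and 413 TPM (-0.76, adjusted p = 0.0101). Gsta1, an alpha-class glutathione transferase, was at 1.39, 5.61 and 4.32 TPM in ND-Sham and 32.4, 95.3 and 32 TPM in HFD-Sham (3.43, adjusted p = 0.0109; 0.0583 without HFD-Sham 2). In bile acid handling 1 of 29 genes rose, Abcc3, and 2 fell, Cyp7b1 and Slco1a1, given above. Without ND-Sham 1, 2 rose and 1 fell. The count of rises was thus near the share of all genes, 4.63%. Abcc3, a basolateral exporter, was at 207, 188 and 228 TPM in ND-Sham and 302, 316 and 298 TPM in HFD-Sham (0.56, adjusted p = 0.0115). That call was lost without HFD-Sham 2 (0.0592) or ND-Sham 2 (0.0538) and with median-ratio scaling (0.239). Cyp7a1, which sets the rate of the classic bile acid pathway, was at 103, 93.8 and 74.6 TPM in ND-Sham and 125, 61.2 and 36.7 TPM in HFD-Sham (-0.44, adjusted p = 0.58).

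Of the urea cycle and amino acid breakdown genes, those that were called all fell. Of 42 members 12 fell and 0 rose (19 and 4 at an unadjusted p under 0.05), against 1.2% of all genes, with a median of -0.39; without ND-Sham 1, 11 fell and 1 rose, and with either other scaling 12 fell. The fall took in 4 steps of the urea cycle. Cps1, which fixes ammonia, was at 1713, 2019 and 2462 TPM in ND-Sham and 696, 529 and 997 TPM in HFD-Sham (log2 fold change of -1.51, SE 0.28, adjusted p = 0.00948). Ass1, argininosuccinate synthase, was at 3079.9, 2913 and 3375 TPM in ND-Sham and 1156, 1014 and 1658 TPM in HFD-Sham (log2 fold change of -1.32, SE 0.23, adjusted p = 0.00679). Asl, argininosuccinate lyase, was at 649, 907 and 939 TPM in ND-Sham and 196, 204 and 321 TPM in HFD-Sham (log2 fold change of -1.80, SE 0.24, adjusted p = 0.00174). Arg1, arginase, named after its values were seen, was at 2345, 2678 and 2822 TPM in ND-Sham and 1136, 1266 and 1695 TPM in HFD-Sham (log2 fold change of -0.95, SE 0.16, adjusted p = 0.00679). In each of these 4 the lowest lean liver was above the highest steatotic one. Got1, cytosolic aspartate aminotransferase, was at 635, 631 and 956 TPM in ND-Sham and 149, 160.2 and 293 TPM in HFD-Sham (log2 fold change of -1.92, SE 0.28, adjusted p = 0.00302). Gnmt, glycine N-methyltransferase, was at 3890.5, 4685 and 3991 TPM in ND-Sham and 2064, 1399 and 2149.6 TPM in HFD-Sham (log2 fold change of -1.18, SE 0.18, adjusted p = 0.00329). Hal, histidine ammonia-lyase, was at 273, 238 and 299.9 TPM in ND-Sham and 119, 86.5 and 116 TPM in HFD-Sham (log2 fold change of -1.33, SE 0.21, adjusted p = 0.00441). HFD-Sham 3 was the highest steatotic library for Cps1, Ass1, Asl, Arg1, Got1 and Gnmt.

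Many of these genes belong to periportal hepatocytes. Of 21 periportal genes 9 fell and 2 rose (median -0.58), and of 24 pericentral genes 3 rose and 0 fell (median 0.093). Without ND-Sham 1, 1 periportal gene rose, and with median-ratio scaling 1 pericentral gene. Both lists share members with other lists. Of the 9 that fell, Sds, Hal, Ass1, Asl, Arg1, Cps1 and Gls2 had been counted with the urea cycle and amino acid genes. Mup20 had been counted with the male-biased genes, so only Etnppl was new. The 9 are therefore not separate evidence of a fall by zone. Etnppl, a phosphoethanolamine lyase, was at 92, 67.1 and 117 TPM in ND-Sham and 17.4, 16.2 and 29.6 TPM in HFD-Sham (log2 fold change of -2.09, SE 0.35, adjusted p = 0.00588). Apoa4, an apolipoprotein that is periportal in mouse, went the other way, at 236, 137 and 226 TPM in ND-Sham and 1950.1, 5893 and 1435 TPM in HFD-Sham (log2 fold change of 3.71, SE 0.50, adjusted p = 0.00178), with HFD-Sham 2 far above the other libraries. Hsd17b13, a droplet enzyme, rose (0.77, adjusted p = 0.0473), but the call was lost without any 1 of the sham libraries but HFD-Sham 3 (0.0602 to 0.209) and with median-ratio scaling (0.323). Aldh1a1, a pericentral retinaldehyde dehydrogenase, was at 569, 815 and 609.8 TPM in ND-Sham and 1383, 1435 and 1280.3 TPM in HFD-Sham (log2 fold change of 1.05, SE 0.17, adjusted p = 0.00504; 0.0856 with median-ratio scaling). Glul, glutamine synthetase of the innermost pericentral layer, was at 962, 540.1 and 594 TPM in ND-Sham and 861, 1039.9 and 848 TPM in HFD-Sham (0.43, adjusted p = 0.206; called without ND-Sham 1 at 0.69 and adjusted p = 0.0153).

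Glucose metabolism and insulin signalling stayed near the background, with 1 of 30 and 2 of 20 genes higher and 1 lower in each. Gbe1, glycogen branching enzyme, was at 34.4, 37.6 and 35.5 TPM in ND-Sham and 63.8, 103 and 64.8 TPM in HFD-Sham (log2 fold change of 1.05, SE 0.20, adjusted p = 0.0104; 0.064 with median-ratio scaling). Slc37a4, the glucose-6-phosphate transporter, was at 169, 187 and 165 TPM in ND-Sham and 87.9, 102 and 106 TPM in HFD-Sham (-0.81, adjusted p = 0.0205), lost without HFD-Sham 1, HFD-Sham 2, ND-Sham 2 or ND-Sham 3 (0.0582 to 0.0829). Pik3r1, the regulatory subunit of PI3 kinase, was at 19.3, 17.3 and 15.7 TPM in ND-Sham and 29.7, 49.5 and 50.7 TPM in HFD-Sham (log2 fold change of 1.23, SE 0.20, adjusted p = 0.00504). Pck1, the gluconeogenic carboxykinase, was at 4846, 3188 and 5005 TPM in ND-Sham and 2188, 2784 and 3764 TPM in HFD-Sham (-0.58, adjusted p = 0.292). Insr, the insulin receptor, was at 29.5, 26.4 and 30.6 TPM in ND-Sham and 31.4, 31.6 and 33 TPM in HFD-Sham (0.15, adjusted p = 0.506), with a sign that turned under median-ratio scaling and quantile normalization.

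Among secreted proteins, falls outnumbered rises in complement and coagulation, where 8 of 40 fell and 0 rose (14 and 3 at an unadjusted p under 0.05); without ND-Sham 1, 3 fell and 1 rose. C8b and C6 are components of the membrane attack complex and male-biased in mice. C8b was at 333, 298 and 289 TPM in ND-Sham and 93.5, 60 and 96.8 TPM in HFD-Sham (log2 fold change of -1.90, SE 0.17, adjusted p = 7.54e-05). C6 was at 166, 151 and 168 TPM in ND-Sham and 33.4, 48.8 and 41.7 TPM in HFD-Sham (log2 fold change of -1.96, SE 0.21, adjusted p = 0.000417). Serpina3k, an abundant serine protease inhibitor, was at 12319.6, 12155 and 10515 TPM in ND-Sham and 3377, 2690.3 and 4847 TPM in HFD-Sham (log2 fold change of -1.72, SE 0.22, adjusted p = 0.00143). It was 1 of 2 among 28 acute phase genes that fell, and 0 rose (5 and 2 unadjusted). Without ND-Sham 1, 2 acute phase genes fell and 1 rose. Saa1, an inducible acute phase protein, was at 326, 46.4 and 34.6 TPM in ND-Sham and 94.5, 91 and 38.9 TPM in HFD-Sham (-0.22, adjusted p = 0.896), highest in ND-Sham 1, and its sign turned without that library or without HFD-Sham 3. Of 29 apolipoprotein and lipoprotein assembly genes 1 rose, Apoa4, and 2 fell, against 4.63% and 1.2% of all genes. Apom, which carries sphingosine 1-phosphate, fell (-0.78, adjusted p = 0.00965; 0.0527 without HFD-Sham 2). Tm6sf2, a lipidation factor, fell as well (-0.69, adjusted p = 0.026), a call lost without HFD-Sham 1, HFD-Sham 2, ND-Sham 2 or ND-Sham 3 (0.0767 to 0.129). Apob was at 883, 779 and 995 TPM in ND-Sham and 1131, 1242 and 1134 TPM in HFD-Sham (0.41, adjusted p = 0.164).

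Of 29 hepatokines 5 rose and 2 fell, against 4.63% and 1.2% of all genes, and 3 rose with median-ratio scaling. Fgf21, a fasting and stress hormone, was at 13.7, 5.53 and 14.2 TPM in ND-Sham and 55.3, 82.1 and 43.1 TPM in HFD-Sham (log2 fold change of 2.38, SE 0.44, adjusted p = 0.00949; 0.052 without HFD-Sham 2). Enho, which encodes adropin, was at 26.5, 29.8 and 25.4 TPM in ND-Sham and 9.82, 7.39 and 8.55 TPM in HFD-Sham (log2 fold change of -1.56, SE 0.30, adjusted p = 0.0111; 0.0587 without HFD-Sham 2). Gdf15, another stress hormone, was at 4.62, 52.8 and 87.6 TPM in ND-Sham and 170.5, 170.0 and 174 TPM in HFD-Sham (2.53, adjusted p = 0.0713; called without ND-Sham 1 at 1.32 and adjusted p = 0.0326, and without ND-Sham 3 at 3.31 and 0.0349). The steatotic livers agreed closely for Gdf15, whereas the lean ones ranged widely and ND-Sham 1 was lowest. Serpina7, which encodes thyroxine-binding globulin, was at 37.3, 17.6 and 25.9 TPM in ND-Sham and 161, 237 and 148 TPM in HFD-Sham (log2 fold change of 2.74, SE 0.28, adjusted p = 0.000247).

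In the antioxidant and NRF2 list 9 of 32 rose and 0 fell (22 and 0 at an unadjusted p under 0.05), with a median of 0.51; 7 rose and 1 fell without ND-Sham 1, and 3 rose with median-ratio scaling. Aldh3a2, which oxidizes fatty aldehydes, was at 223, 177 and 211 TPM in ND-Sham and 581, 835 and 673 TPM in HFD-Sham (log2 fold change of 1.76, SE 0.14, adjusted p = 4.73e-05), a call that held under every alternative. Gpx4, which reduces lipid peroxides, was at 283, 244 and 258 TPM in ND-Sham and 480.4, 749 and 370.1 TPM in HFD-Sham (0.97, adjusted p = 0.0152), lost without ND-Sham 2 (0.0664) or ND-Sham 3 (0.0572) and with median-ratio scaling (0.0597). Nqo1 and Hmox1 are the usual inducible reporters of the pathway. Nqo1 was at 13, 17.7 and 10.6 TPM in ND-Sham and 20.9, 35 and 18.6 TPM in HFD-Sham (0.78, adjusted p = 0.222). Hmox1 was at 17, 45.7 and 62.7 TPM in ND-Sham and 59.4, 57.9 and 142 TPM in HFD-Sham (1.08, adjusted p = 0.167). Of 33 stress response genes of the endoplasmic reticulum 2 rose and 1 fell, while 1 rose and 0 fell without ND-Sham 1 and 0 rose with either other scaling. Hspa5, the chaperone BiP, was at 232, 275 and 316 TPM in ND-Sham and 383, 452 and 357 TPM in HFD-Sham (0.54, adjusted p = 0.0847). Ddit3, which encodes CHOP, was at 8.99, 7.32 and 12.3 TPM in ND-Sham and 19.4, 24.5 and 16.1 TPM in HFD-Sham (1.00, adjusted p = 0.0984). Both were higher in each steatotic liver without passing the threshold.

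Markers of monocyte-derived and lipid-associated macrophages rose in 7 of 21 members and fell in 0 (14 and 0 at an unadjusted p under 0.05), with a median of 1.05. The count was 11 without ND-Sham 1 and 7 with either other scaling. The 7 were Trem2, Gpnmb, Itgax, Mmp12, Cd63, Lgals3 and Clec7a. Mmp12, macrophage elastase, was at 0.2, 0.08 and 0.07 TPM in ND-Sham and 8.29, 11.2 and 2.9 TPM in HFD-Sham (log2 fold change of 2.77, SE 0.37, adjusted p = 0.00166). Trem2, the lipid-sensing receptor that defines these cells, was at 0.38, 0.18 and 0.21 TPM in ND-Sham and 2.26, 3.38 and 1.08 TPM in HFD-Sham (log2 fold change of 1.30, SE 0.23, adjusted p = 0.00817). Gpnmb, a glycoprotein of lipid-laden macrophages, was at 0.41, 0.14 and 0.15 TPM in ND-Sham and 2.84, 9.43 and 1.76 TPM in HFD-Sham (log2 fold change of 1.97, SE 0.36, adjusted p = 0.00978). HFD-Sham 2 was highest and HFD-Sham 3 lowest of the steatotic livers for all 3. Spp1, osteopontin, was at 77.6, 35 and 71.7 TPM in ND-Sham and 169, 396 and 96.9 TPM in HFD-Sham (1.67, adjusted p = 0.125). The whole list summed to 184 to 348 TPM in the ND-Sham libraries and 291 to 914 TPM in the HFD-Sham libraries, which overlapped.

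Of 15 resident Kupffer cell markers 1 rose, Cd68, a lysosomal protein of all macrophages (11.5, 11.4 and 11.5 TPM in ND-Sham and 30.2, 38.8 and 22 TPM in HFD-Sham; log2 fold change of 1.29, SE 0.18, adjusted p = 0.00178), and 0 fell (3 and 1 unadjusted). Clec4f, restricted to Kupffer cells, was at 68, 68.8 and 60.9 TPM in ND-Sham and 89.5, 54.2 and 68.4 TPM in HFD-Sham (0.072, adjusted p = 0.918), with a sign that turned under the other scalings, and Timd4, of embryonic Kupffer cells, at 4.99, 5.12 and 6.04 TPM in ND-Sham and 5.93, 2 and 4.22 TPM in HFD-Sham (-0.42, adjusted p = 0.472). The Kupffer cell list summed to 463 to 473 TPM in the ND-Sham libraries and 485 to 751 TPM in the HFD-Sham libraries. Its 1 called rise among 15 is to be read against 4.63% of all genes. The difference between the 2 lists was not tested. Of 12 hepatocyte markers 4 fell, Serpina1c, Cyp3a11, Ass1 and Cps1, and 0 rose (6 and 2 unadjusted), with a median of -0.35, and 2 fell with quantile normalization. The hepatocyte list summed to 115831 to 135994 TPM in the ND-Sham libraries and 108484 to 122072 TPM in the HFD-Sham libraries. Its part in the values of the other cell types was not tested. Of 15 neutrophil, 10 lymphocyte, 20 sinusoidal endothelial and 13 cholangiocyte markers 0 were called in either direction. At an unadjusted p under 0.05 in limma, 1 neutrophil marker was lower, and 1 endothelial and 5 cholangiocyte markers were higher. The cholangiocyte list summed to 830 to 1094 TPM in the ND-Sham libraries and 1402 to 2325 TPM in the HFD-Sham libraries. The sums of the neutrophil, lymphocyte and endothelial lists overlapped between the diets. S100a9, a neutrophil marker, was at 10.2, 10.9 and 8.52 TPM in ND-Sham and 7.28, 7.19 and 3 TPM in HFD-Sham (-0.74, adjusted p = 0.364). Cd79a, a B cell marker, was at 18.3, 2.29 and 1.89 TPM in ND-Sham and 2.83, 1.29 and 0.86 TPM in HFD-Sham (-1.16, adjusted p = 0.275), highest in ND-Sham 1.

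Of 37 chemokines, cytokines and adhesion molecules 8 rose and 1 fell (7 and 2 without ND-Sham 1, 5 and 1 with either other scaling), with a median of 0.35. Cxcl9 and Cxcl10 are T cell chemokines induced by interferon gamma. Cxcl9 was at 4, 3.35 and 2.21 TPM in ND-Sham and 16.5, 10.9 and 10.2 TPM in HFD-Sham (log2 fold change of 1.69, SE 0.27, adjusted p = 0.00482). Cxcl10 was at 4.3, 3.55 and 3.06 TPM in ND-Sham and 20.5, 16.3 and 9.03 TPM in HFD-Sham (log2 fold change of 1.75, SE 0.27, adjusted p = 0.00409). Il1rn, the interleukin 1 receptor antagonist, was at 1.77, 2.63 and 2.05 TPM in ND-Sham and 10.3, 8.48 and 6.37 TPM in HFD-Sham (log2 fold change of 1.56, SE 0.24, adjusted p = 0.00386). Each of the 3 was higher in every steatotic liver. Ccl2, the monocyte chemokine, was at 0.58, 1.51 and 1.3 TPM in ND-Sham and 15.5, 16.9 and 3.12 TPM in HFD-Sham (2.35, adjusted p = 0.0203), lost without HFD-Sham 1, HFD-Sham 2, ND-Sham 2 or ND-Sham 3 (0.0554 to 0.1). The inflammatory cytokine Il1b was at 4.83, 4.72 and 8.66 TPM in ND-Sham and 10.1, 3.99 and 1.42 TPM in HFD-Sham (-0.42, adjusted p = 0.667), and its sign turned without HFD-Sham 3. Tnf was at 0.41, 0 and 0.19 TPM in ND-Sham and 1.42, 0.48 and 0 TPM in HFD-Sham (0.36, adjusted p = 0.552). The chemokine that fell was Cxcl13, which attracts B cells, at 26.3, 3.96 and 16.2 TPM in ND-Sham and 1.84, 0.34 and 0.64 TPM in HFD-Sham (-2.85, adjusted p = 0.0109; 0.059 without HFD-Sham 2 and 0.051 without ND-Sham 3). In the interferon-induced list 5 of 50 rose and 0 fell (28 and 0 at an unadjusted p under 0.05), with a median of 0.56. This count was 19 without ND-Sham 1 and 1 with median-ratio scaling. Gbp6, a guanylate-binding protein, was at 2.03, 1.67 and 0.92 TPM in ND-Sham and 6.39, 4.5 and 4.29 TPM in HFD-Sham (1.26, adjusted p = 0.0122; 0.0526 without HFD-Sham 1 and 0.059 without ND-Sham 3).

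Collagen and matrix genes rose in 13 of 39 members and fell in 0 (26 and 0 at an unadjusted p under 0.05), with a median of 0.81; 19 rose without ND-Sham 1, and 13 with either other scaling. Col14a1, a fibril-associated collagen, was at 12.5, 12.2 and 11.5 TPM in ND-Sham and 33.2, 38.2 and 29.1 TPM in HFD-Sham (log2 fold change of 1.39, SE 0.18, adjusted p = 0.00138). Col6a3, of microfibrillar collagen VI, was at 2.43, 0.96 and 1.97 TPM in ND-Sham and 5.69, 9.12 and 5.11 TPM in HFD-Sham (log2 fold change of 1.46, SE 0.24, adjusted p = 0.00514). Col1a1, the main fibrillar collagen of scars, was at 6.04, 1.19 and 2.18 TPM in ND-Sham and 18.9, 35.3 and 9.86 TPM in HFD-Sham (log2 fold change of 2.44, SE 0.45, adjusted p = 0.0101). Col3a1 was at 15.3, 3.01 and 3.73 TPM in ND-Sham and 34.3, 55.2 and 17.6 TPM in HFD-Sham (2.30, adjusted p = 0.0196). The Col3a1 call was lost without HFD-Sham 1, HFD-Sham 2, ND-Sham 2 or ND-Sham 3 (0.0611 to 0.0969). In both, ND-Sham 1 was the highest lean liver and HFD-Sham 2 the highest steatotic one. Timp1, an inhibitor of matrix proteases, was at 0.64, 0.11 and 0.36 TPM in ND-Sham and 3.93, 7.9 and 1.41 TPM in HFD-Sham (1.81, adjusted p = 0.015; 0.0682 without ND-Sham 2 and 0.0536 without ND-Sham 3).

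Stellate cell and fibroblast markers rose in 7 of 19 members and fell in 0, 3 of the 7 being collagens counted above, and in 4 with either other scaling. The list summed to 248 to 337 TPM in the ND-Sham libraries and 349.9 to 517 TPM in the HFD-Sham libraries. Lrat, the retinyl ester enzyme that defines quiescent stellate cells, was at 5.06, 5.84 and 4.39 TPM in ND-Sham and 11.2, 12.2 and 7.1 TPM in HFD-Sham (0.85, adjusted p = 0.0661; 0.0339 without HFD-Sham 3). Acta2, smooth muscle actin of activated ones, was at 16.6, 1.11 and 1.06 TPM in ND-Sham and 2.93, 4.09 and 1.05 TPM in HFD-Sham (-0.30, adjusted p = 0.829). Acta2 was highest in ND-Sham 1, and its sign turned without it. The part of these cells in the collagen values was not tested.

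**Figure D4:**
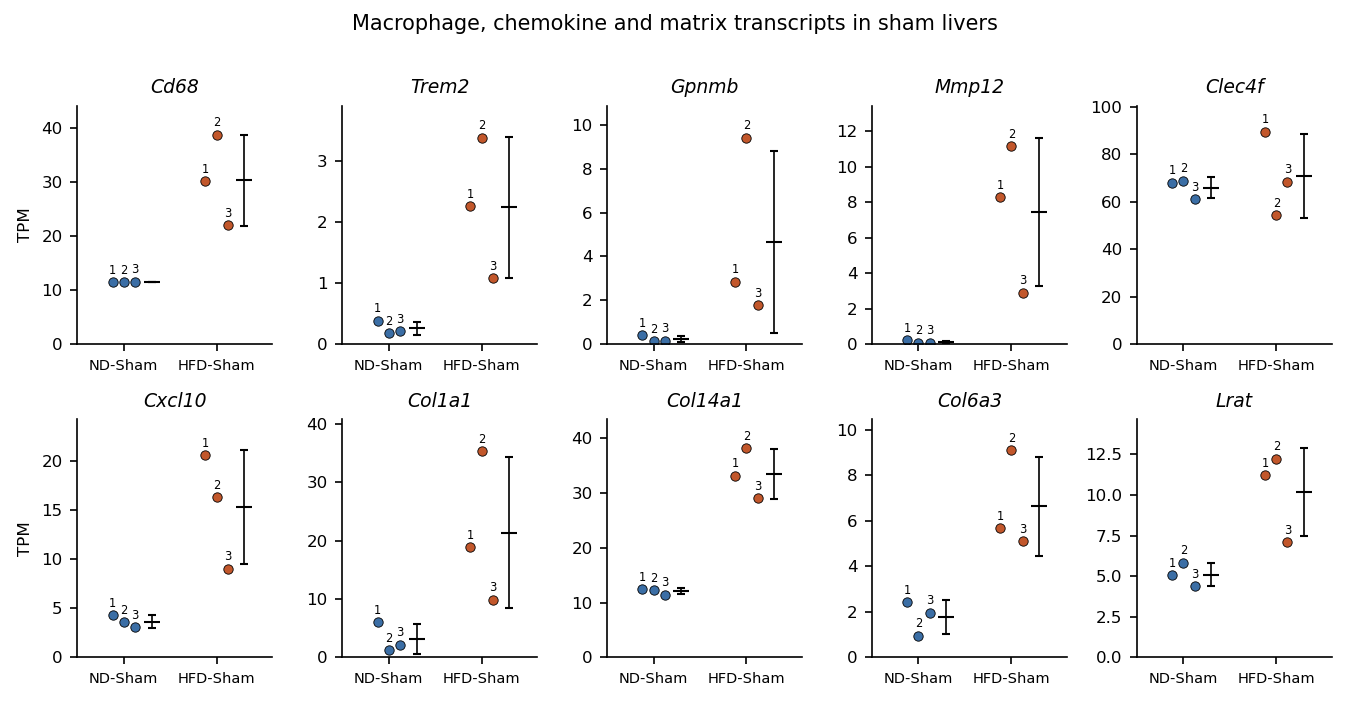
TPM of 10 macrophage, chemokine, matrix and stellate cell transcripts in each of the 6 sham libraries, on linear axes from 0. Points are libraries, numbered by replicate, and bars are the group mean ± SD (n = 3). Cd68, Mmp12 and Col14a1 separate the diets, the Kupffer cell gene Clec4f does not, and HFD-Sham 3 is the lowest steatotic library for Cd68, Trem2, Gpnmb, Mmp12, Cxcl10, Col1a1, Col14a1, Col6a3 and Lrat.

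Several programmes showed 0 calls in limma at this group size. Of 38 nuclear respiratory chain subunits (median 0.14) 5 were higher and 0 lower at an unadjusted p under 0.05. By that measure 0 of 40 cytosolic ribosomal proteins were higher and 4 lower (median -0.16), and 0 of 13 mitochondrially encoded transcripts differed. It gave 3 higher and 2 lower of 22 clock genes, and 5 and 0 of 29 immediate early genes. For 21 heat shock genes it gave 5 and 1, and for 17 cell cycle genes 5 and 0. Without ND-Sham 1, 4 cell cycle, 2 heat shock and 1 clock gene were called higher and 1 mitochondrially encoded transcript lower. With quantile normalization 2 ribosomal protein genes were called lower. Fos, an immediate early factor, was at 7.96, 24.6 and 17.8 TPM in ND-Sham and 221, 37.5 and 40.6 TPM in HFD-Sham (2.12, adjusted p = 0.0535; 0.0437 without HFD-Sham 3 and 0.047 with a filter at 5 TPM), with 1 library, HFD-Sham 1, far above the rest. The lean livers differed among themselves for Igfbp1, a fasting-sensitive IGF carrier (82.4, 1604 and 2255 TPM), and Atf3, a stress factor (2.25, 72.8 and 67.2 TPM), with ND-Sham 1 lowest in both. In simulated data with noise drawn independently for each gene, changes were planted only in genes above 5 TPM in ND-Sham. Of these, 74 of 100 with a log2 change of 1 and 97 of 100 with a change of 2 were recovered. Smaller changes can therefore be missed. Recovery at lower TPM, or with shifts that many genes of a library share, was not simulated.

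The IRI livers give the same diet comparison in other samples. There 516 genes were called (3.86%), 318 higher (2.38%) and 198 lower (1.48%) on the high-fat diet. Of the 619 genes higher in sham livers, 150 were also called higher in IRI livers (24.2% of the sham list and 47.2% of the IRI list), 2 were called lower, and 87.9% had a positive estimate. Of the 161 lower genes, 59 were also called lower (36.6% and 29.8%), 0 were called higher (at the adjusted threshold), and 88.2% had a negative estimate. The medians of the 2 lists went from 0.85 to 0.39 and from -1.10 to -0.53. Genes chosen by a threshold in sham livers tend to have estimates there that are too large. Smaller medians in IRI livers would follow from that choice alone, so they do not show a smaller diet effect. The median of all genes also differed, at 0.17 in sham livers and 0.039 in IRI livers. The genes were chosen in the first comparison, and both comparisons used the same estimate of the spread for each gene. Their calls are therefore not independent. The share of all genes with the same sign in both was not counted.

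For some of the genes that changed most in sham livers, the values in the injured livers follow. Cyp2b9 went from 0.26, 0.32 and 0.53 TPM in ND-IRI to 226, 267 and 430.1 TPM in HFD-IRI (log2 fold change 7.77). Serpina1e went from 9338, 10249 and 11873 to 153, 124 and 229.6 TPM (-5.99). Hsd3b5 went from 94.7, 49.2 and 52.6 to 0.13, 0.22 and 0.06 TPM (-5.81). Cd36 went from 20.7, 25.9 and 25.1 to 243, 239 and 205 TPM (3.21). All 4 were called (adjusted p = 1.74e-09, 2.96e-07, 1.83e-05 and 1.05e-07). Male-biased genes fell in 20 of 33 in IRI livers. Female-biased genes rose in 14 of 23 there, with a median of 1.35 against 0.073 in sham livers. The macrophage list held 1 call there, the antioxidant list 3 and the urea cycle list 2 higher and 3 lower.

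The difference of the diet effects, IRI minus sham, was called for 13 genes (0.0973%), 6 with a positive (0.0449%) and 7 with a negative difference (0.0524%). Some of the 13 were called in sham livers and not in IRI livers. Serpina7 was at 37.3, 17.6 and 25.9 TPM in ND-Sham and 161, 237 and 148 TPM in HFD-Sham, but at 208, 240.3 and 135 TPM in ND-IRI and 158, 184 and 132 TPM in HFD-IRI (difference -3.01, SE 0.40, adjusted p = 0.0166; lost without ND-Sham 3, ND-IRI 2 or HFD-IRI 3). Osbpl3, an oxysterol-binding protein, rose in sham livers from 1.22, 1.19 and 1.23 to 18.4, 43.5 and 15.1 TPM (log2 fold change of 3.44, SE 0.29, adjusted p = 6.38e-05) and was at 1.07, 1.16 and 1.02 and 3.13, 2.77 and 2.22 TPM in IRI livers (difference -2.62, SE 0.42, adjusted p = 0.0404; lost without any 1 of 9 of the 12 libraries). Cux2 was near 0 in both IRI groups, at 0.05, 0.1 and 0.11 and 0.08, 0.03 and 0.12 TPM (difference 2.38, SE 0.31, adjusted p = 0.0166; lost without ND-IRI 2, ND-IRI 3 or HFD-IRI 3). Others were not called in sham livers and were called in IRI livers. Cyp4a10 was at 151, 93.6 and 149.7 TPM in ND-IRI and 1301, 1208 and 1425 TPM in HFD-IRI (difference 3.69, SE 0.29, adjusted p = 0.000379). Cyp2e1, an ethanol-oxidizing P450, was at 12298, 10923 and 11677 TPM in ND-Sham and 16104, 11456 and 14961 TPM in HFD-Sham. In IRI livers it was at 2719, 2164 and 2531 and 9063, 7723 and 9682 TPM (difference 1.56, SE 0.22, adjusted p = 0.0219; lost without any 1 of 6 of the libraries and with median-ratio scaling). The number of such genes was 2 without HFD-IRI 3 or ND-IRI 2 and 3 without ND-IRI 3 or ND-Sham 3. It was 8 without HFD-IRI 1, HFD-IRI 2, HFD-Sham 2 or ND-Sham 2, 27 without HFD-Sham 3 and 89 without ND-IRI 1.

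**Figure D5:**
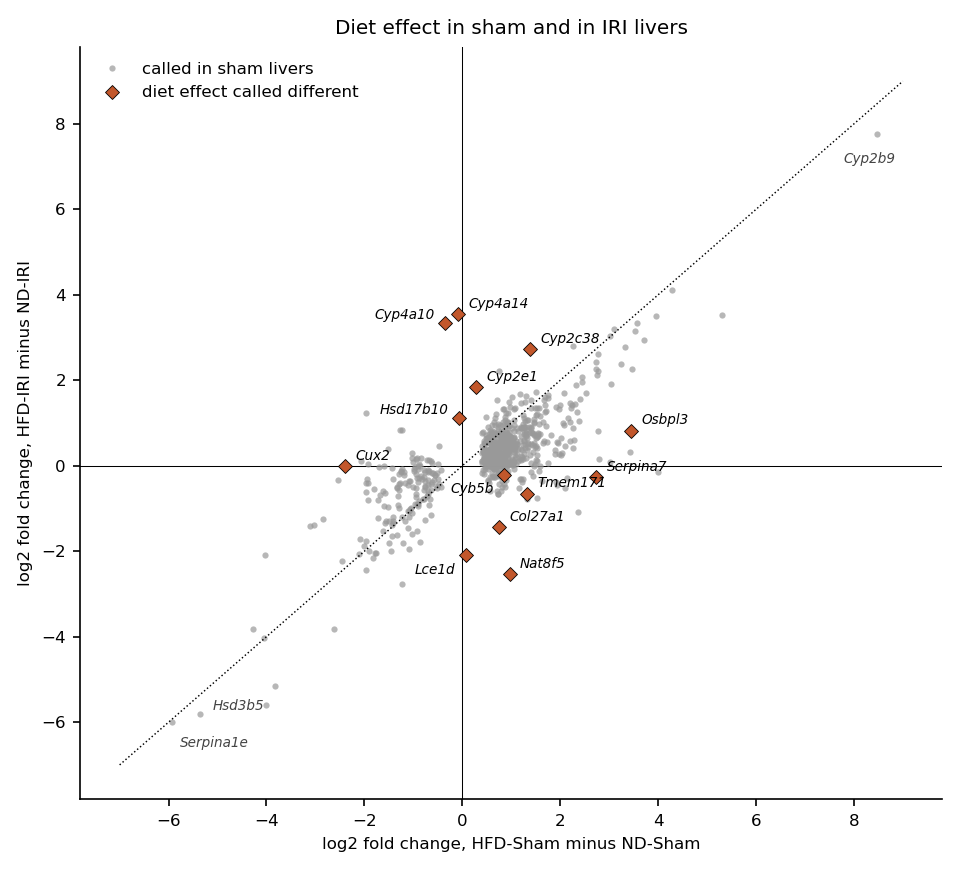
Log2 fold change between the diets in sham livers (x axis) and in IRI livers (y axis) for the 780 genes called in sham livers (grey) and the 13 genes whose diet effects were called different (diamonds); the dotted line marks equal effects. Cyp2b9, Serpina1e and Hsd3b5 lie near the line, and Cyp4a10 and Cyp4a14 lie near 0 on the x axis and above 3 on the y axis.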

How the data were processed

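Poly(A) RNA of mouse liver was sequenced strand-specifically on BGI instruments, per the labels' protocols. The authors deposited TPM per gene symbol and library; the submitters' processing notes name mouse build GRCm39. How reads were aligned and counted, with which annotation and whether by strand, is not given in the sources used here. Every library has the same total on the TPM scale, so depth, counting intervals and floors could not be had. Without 2 blank entries the table held 25947, of which 807 were at 0 throughout; 18 repeated symbols were kept apart. A second sheet had 23 sample columns that could not be matched to the labels and were not used.

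The 13364 genes that reached 1 TPM in 3 or more of the 12 libraries were tested as log2(TPM + 1) in limma 3.58.1 (R 4.3.3), with a mean per group, a variance trend and 8 residual degrees of freedom. All 4 groups entered, so that they shared an estimate of the spread. Tests were two-sided and adjusted for 5% false discoveries per contrast. The contrasts were the diets in sham livers, the diets in IRI livers, and their difference. Tables and figures were made with pandas 2.3.3 and matplotlib 3.10.9 in Python 3.11.15.

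The 48 gene lists were written by hand, and the comparison, lists and naming rule were chosen with earlier results of these data known. The rule named, in each direction, the 12 called genes with the largest change whose groups did not overlap and whose higher group averaged 5 TPM or more, without predicted and clone-named genes. It added up to 3 called genes per list and direction with the smallest p, a key gene set, and the 6 smallest p-values of the difference. Cyp2b13, Serpina1a, Serpina1b, Serpina1d and Arg1 were named after their values were seen, as were genes listed without values.

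Promoter windows (250 bases before to 50 after the start) came from RefSeq's GRCm38.p6 table and are not on the authors' build; 10016 of the 13364 genes had one. On simulated data with 3 libraries per group and noise drawn independently for each gene, the method made 9 false calls. That number does not cover shifts that many genes of a library share. Alternatives in the transform and filter were a pseudocount of 0.1, a filter at 5 TPM and none at all. Those in the scaling were median-ratio, quantile and TPM re-closed after removal of mitochondrial genes and of the 50 most abundant. Others left out the variance trend, the groups not compared or each library in turn, added the replicate number as a block, or required a log2 change of 1. Removing both ND-Sham 1 and ND-IRI 1 was chosen after seeing the data. A few genes of the lists are not reported here by name.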

Additional observations from a re-analysis of the deposited data

Results flagged for a closer look

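For 13 genes the diet effect differed between sham and IRI livers by limma's test of the difference itself, adjusted over all genes, in 3 libraries per group. The 7 of them named by the rule are given here. Lce1d, not named because it averaged below 5 TPM in every group, held with each alternative tried (-2.16, adjusted p = 0.0024). The differences are IRI minus sham on the log2 scale. Cyp4a10 (3.69, adjusted p = 0.000379) was the 1 gene of the 7 that held with each alternative tried. Cyp4a14 (3.63) was called at 0.0219 and lost without ND-Sham 3, ND-IRI 2, ND-IRI 3, HFD-IRI 2 or HFD-IRI 3 (0.0612 to 0.0702) and with median-ratio scaling (0.0524). Cyp2e1 (1.56, 0.0219) was lost without ND-Sham 2, ND-Sham 3, ND-IRI 2, ND-IRI 3, HFD-IRI 1 or HFD-IRI 3 (0.0539 to 0.079), with no filter on low values (0.0992) and with median-ratio scaling (0.0839). Serpina7 (-3.01, 0.0166) was lost without ND-Sham 3, ND-IRI 2 or HFD-IRI 3 (0.0623 to 0.0702), and Cux2 (2.38, 0.0166) without ND-IRI 2, ND-IRI 3 or HFD-IRI 3 (0.0543 to 0.0679). Col27a1, a fibrillar collagen of cartilage, was at 5.6, 7.89 and 5.88 TPM in ND-Sham and 12.2, 14 and 8.67 TPM in HFD-Sham (0.75, adjusted p = 0.0518; 0.0273 without HFD-Sham 3), and at 8.95, 14 and 11.8 TPM in ND-IRI and 3.89, 3.3 and 3.53 TPM in HFD-IRI. Its difference of -2.19 (0.0166) was lost without ND-Sham 3, ND-IRI 2, ND-IRI 3 or HFD-IRI 3 (0.0565 to 0.0705). Osbpl3 (-2.62, 0.0404) was lost without any 1 of 9 of the 12 libraries, with no filter on low values (0.0814) and with the replicate number as a block (0.061). No member group had 4 or more libraries, so single libraries were not tested for standing apart.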

How the results depend on the processing

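The direction of none of the 111 called genes named by the rule turned under any alternative. When the TPM were re-closed, 8 of all 780 called genes lacked a matching sign. That count includes genes that re-closing removed, such as Serpina1d, so it is not a count of turned signs. In sham livers 780 genes were called (619 higher, 161 lower). With a log2 change of at least 1 these were 315, 222 and 93. With median-ratio scaling 482 were called, 275 higher. With quantile normalization 329 were higher and 250 lower. With only the groups compared 367 were called, 286 and 81. Without both first normal-diet libraries 1730 were called, 1522 higher. Leaving out each library gave 248 to 1047 calls, 186 to 902 higher and 62 to 145 lower. In IRI livers 246 were called with a log2 change of at least 1, 304 with only the groups compared, and 240 to 609 with each library left out. The difference of the diet effects, 13 genes, was called for 21 with no filter, 25 with a pseudocount of 0.1, 21 with quantile normalization, 20 with re-closed TPM, 335 without both first normal-diet libraries and 2 to 89 with each library left out. The cause was not tested.

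For libraries with the same number, deviations from the group mean had r = 0.40, 0.0756 and 0.27 across genes in the sham groups. In the IRI groups they had r = 0.0729, 0.42 and -0.18. Not every library correlated best with its own number. Deviations from a mean of 3 libraries are not independent of each other, so these values cannot settle whether the numbers pair the samples. With the replicate number as a block 568 genes were called (434 higher and 134 lower), 448 in IRI livers and 9 for the difference.

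Among the 111 named calls, 44 were lost without HFD-Sham 2, 41 without ND-Sham 3, 39 with only the groups compared, 35 without ND-Sham 2, 27 with no filter, 26 without HFD-Sham 1, 24 with median-ratio scaling, 14 with quantile normalization, 12 without HFD-Sham 3, 10 without ND-Sham 1 and 10 with the block. Of the named genes not called, 15 were called under an alternative. Depth was unknown, so a TPM near 0 carries no counting limit.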
